A study of Danio rerio with 14 samples.

Results

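The H3K27ac landscape of IRF4-driven zebrafish tumors was described from the peak lists of 4 tumors, one list per fish. Peaks of the 4 lists were merged wherever they overlapped by at least 1 bp, and each merged region was placed in a class by the number of tumors, from 1 to 4, that had a peak in it. The 109238 peaks gave 54163 regions on 1234 sequences of the assembly GRCz11, which together covered 29.9 Mb. When the 3 normal thymus lists of the series were merged in as well, 98262 regions were obtained, and 52619 of them (53.5%) held a tumor peak. Thymus lists entered no other value given here. The study's gene intervals used below come in part from its own comparison of tumors with thymus.

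The tumors arose in Tg(lck:IRF4) zebrafish, which carry the human transcription factor gene IRF4 and the fluorescent marker mCherry under the zebrafish lck promoter. This promoter is active in immature and mature T- and B-lymphocytes, so the transgene can act in both lineages. Tumor cells were harvested once a tumor had formed, sorted for mCherry, crosslinked with formaldehyde and precipitated with an antibody to H3K27ac (ab4729). Whole cell lysate of the same sample was the background. The study calls the 4 fish lck:IRF4, with no p53 genotype named for them. The age of 3 months in its methods is tied by the labels to the thymus samples, and the labels give the tumor samples no age. The label of tumor 4 has no tissue entry, and its group was taken from its title. The lists hold positions and no read counts. The study names only a nominal sequencing depth for all libraries, the reads behind each list are not known, and no counting interval is given.

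H3K27ac is an acetyl group on lysine 27 of histone H3. It is placed by the acetyltransferases p300 and CBP, removed by histone deacetylases, and found on nucleosomes at active promoters and active enhancers. Wide, closely spaced stretches of the mark lie near genes that define a cell type, and in T-lymphocytes these include genes for transcription factors such as GATA3, RUNX3 and BCL11B. A peak marks a stretch in which immunoprecipitated reads exceeded the background, so a peak list records where the mark was detected and not how much of it was present. Sequence of the regions is not shown, because no genome of the build was used here.

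The 4 lists differed in size. The authors' caller reported 26449 peaks in tumor 1, 32781 in tumor 2, 30199 in tumor 3 and 19809 in tumor 4. The covered length was 15.02, 17.72, 17.38 and 9.11 Mb in the same order, with a mean of 14.8 ± 3.98 Mb (SD, n = 4). Tumor 4 was the smallest by both measures. The median distance between neighbouring peaks on chromosomes was 15672.5 bp in tumor 1, 12792 bp in tumor 2, 17721 bp in tumor 3 and 21359 bp in tumor 4. Tumor 2 thus had the most closely spaced peaks and tumor 4 the sparsest. The quartiles of peak width were 246 and 735 bp in tumor 1, 201 and 646 bp in tumor 2, 207 and 797 bp in tumor 3, and 169 and 605 bp in tumor 4. Widths overlapped broadly between the tumors. The narrowest peak of the list measured 72 bp in tumor 4 and more in the other tumors.

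Most regions were found in 1 tumor, whereas the regions common to all 4 held the largest share of the length. Of the 54163 regions, 32779 (60.5%) had a peak in 1 tumor, 5463 (10.1%) in 2, 4675 (8.63%) in 3 and 11246 (20.8%) in all 4. Intermediate recurrence was thus less frequent than either extreme under the 1 bp rule. In length, the order was different. The regions of 1 tumor held 9.83 Mb, or 32.9% of the union, and those of 4 tumors held 13.2 Mb, or 44.3%. Regions in 2 and 3 tumors held 3.15 and 3.68 Mb. The order by number rests on the rule for a call. When a call needed peaks over 50% of a region, 36441 of 54154 regions were in 1 tumor and 4718 in all 4. In bins of 1 kb, 10495 of 22380 were in 1 tumor and 3866 in all 4. In both cases an intermediate class was larger than the class of all 4. In these bins, and with equal numbers of the widest peaks (15827 of 33682), regions of 1 tumor were no majority.

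Within a single tumor, the regions present in all 4 tumors held 64.3% of the covered length in tumor 1, 53.7% in tumor 2, 64.0% in tumor 3 and 80.1% in tumor 4, a mean of 65.5% ± 10.9 (SD, n = 4). This mean rests on the rule for a call, and was 33.3% when a call needed peaks over 50% of a region and 37.2% of a tumor's bins when bins of 1 kb were used. Regions private to the tumor held 11.6% in tumor 1, 29.4% in tumor 2, 13.2% in tumor 3 and 6.36% in tumor 4, a mean of 15.1% ± 9.96 (SD, n = 4). The lowest common share (tumor 2) lay above the highest private share (also tumor 2), so the length in common regions exceeded the private length in each of the 4 tumors. Counted as peaks, 77.4% of those of tumor 1, 57.6% of tumor 2, 67.4% of tumor 3 and 84.5% of tumor 4 lay in a region that another tumor shared. Tumor 4, with the fewest peaks, had the largest shared fraction, and tumor 2, with the most peaks, the smallest.

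**Figure D1:**
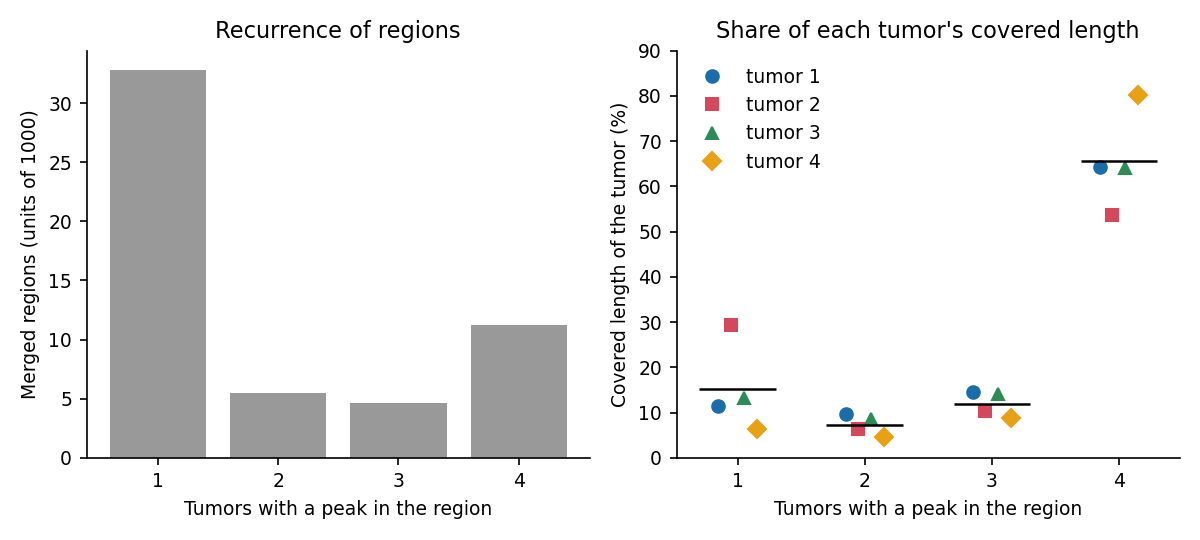
Recurrence of tumor H3K27ac regions. The left panel shows the number of merged regions, in units of 1000, by the number of tumors with a peak, and the right panel shows the percentage of each tumor's covered length in each class, with a point per tumor and a line at the mean. The class of 1 tumor is the tallest bar with 32779 regions, while the class of 4 tumors holds the largest share of length in each tumor, between 53.7% and 80.1%.

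The private regions were unevenly divided. Tumor 2 contributed 13899 of them, tumor 3 contributed 9837, tumor 1 contributed 5966 and tumor 4 contributed 3077. Tumors 1 and 3 had the most regions in common among those found in 2 tumors, with 2209 regions. The other pairs followed with 982 for tumors 2 and 3, 877 for tumors 1 and 2, 551 for tumors 2 and 4, 507 for tumors 3 and 4, and 337 for tumors 1 and 4. Among the regions of 3 tumors, 2617 lacked only tumor 4, 1115 lacked only tumor 2, 548 lacked only tumor 1 and 395 lacked only tumor 3. The order follows the size of the lists only in part, since the largest list (tumor 2) was missing more often than the list of tumor 1.

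The same point can be stated as a rate. Of the regions that the other 3 tumors shared, tumor 1 lacked 4.65% (548 of 11794), tumor 2 lacked 9.02% (1115 of 12361), tumor 3 lacked 3.39% (395 of 11641) and tumor 4 lacked 18.9% (2617 of 13863). The missing regions were the smaller ones. Measured by the least covered of the 3 other tumors, the median was 203 bp for regions that tumor 1 lacked and 445 bp for those it had, 228 and 463.5 bp for tumor 2, 198 and 434 bp for tumor 3, and 273 and 565 bp for tumor 4. A region with longer cover is also more likely to overlap a peak of another tumor under the 1 bp rule. The part of this in the difference was not tested.

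As more tumors were considered, the common set shrank slowly after the first step and the union kept growing. Counted on the merged regions, 1 tumor had on average 25678.5 regions, and the regions common to 2 tumors numbered 14494 ± 1713 (SD over 6 pairs). The regions common to 3 tumors numbered 12414.8 ± 1014 (SD over 4 sets), followed by the 11246 common to all 4. The union rose from 36863 regions for 2 tumors to 45968.2 for 3 and 54163 for 4. These sets share tumors, so their SDs describe spread between combinations and not an error.

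Pairs of tumors were also compared by the Jaccard index, the length covered in both divided by the length covered in either. It was 0.490 for tumors 1 and 3, 0.393 for tumors 1 and 4, 0.373 for tumors 1 and 2, 0.372 for tumors 2 and 3, 0.371 for tumors 3 and 4, and 0.325 for tumors 2 and 4. Tumors 1 and 3 were the most alike, and tumors 2 and 4 the least. Because the lists differ in length, the index hides an asymmetry. Tumor 3 covered 78.7% of the length of tumor 4, and tumor 4 covered 41.3% of that of tumor 3. For tumors 2 and 3, the pair closest in length, the values were 53.7% of tumor 2 and 54.7% of tumor 3.

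Recurrence went with peak width in each of the 4 tumors. The merged width of a region grows with the number of peaks merged, with medians of 204, 457, 669 and 1003 bp from 1 to 4 tumors, so the widths of each tumor's own peaks are given instead. In tumor 1 the median width of a peak was 223 bp where no other tumor had one, 319.5 bp with 1 other, 417 bp with 2 others and 649 bp with all 3 others. The same steps were 218, 308, 369 and 617.5 bp in tumor 2, 194, 317, 464 and 813 bp in tumor 3, and 146, 202, 256 and 443 bp in tumor 4. The median increased at each step in each tumor. Between private peaks and those found in all tumors it differed 2.91-fold in tumor 1, 2.83-fold in tumor 2, 4.19-fold in tumor 3 and 3.03-fold in tumor 4. The quartiles overlapped between neighbouring classes, so width alone did not separate them. A wider peak is also more likely to overlap a peak of another tumor under the 1 bp rule. The part of this in the steps was not tested.

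The extremes of width behaved in the same way, and the same limit of the overlap rule applies to them. Of the widest 10% of peaks, 83.9% in tumor 1, 73.5% in tumor 2, 89.2% in tumor 3 and 91.0% in tumor 4 lay in regions of all 4 tumors. Of the peaks at the smallest width of the list, 63.5% in tumor 1, 86.7% in tumor 2, 81.1% in tumor 3 and 53.9% in tumor 4 were private. Tumor 2 departed at the wide end, where 13.5% of its widest peaks were private, against 0.497% to 2.495% in the others. Tumor 2 was also the only list with peaks over 10 kb. It had 34 of these, covering 0.738 Mb or 4.16% of its length, of which 29 were private, 4 lay in regions of 2 tumors, 1 in a region of 3 and 0 in a region of all 4.

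The list of tumor 1 alone gave a fold enrichment over the lysate and a −log10 p for each peak. The median fold enrichment was 2.90 for its private peaks, 3.11 with 1 other tumor, 3.46 with 2 and 4.31 with all 3. The median −log10 p was 4.23, 5.08, 6.21 and 10.3 in that order. The interquartile ranges of fold enrichment, 2.64 to 3.27 for private peaks and 3.58 to 5.16 for those in all 4 tumors, did not overlap. When the peaks were ordered by −log10 p and divided into 10 groups of equal size, 8.28% of the lowest group and 95.2% of the highest lay in regions of all 4 tumors. Private peaks made up 64.8% of the lowest group and 0.265% of the highest. These are values of 1 library, and whether the other tumors follow them was not tested.

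**Figure D2:**
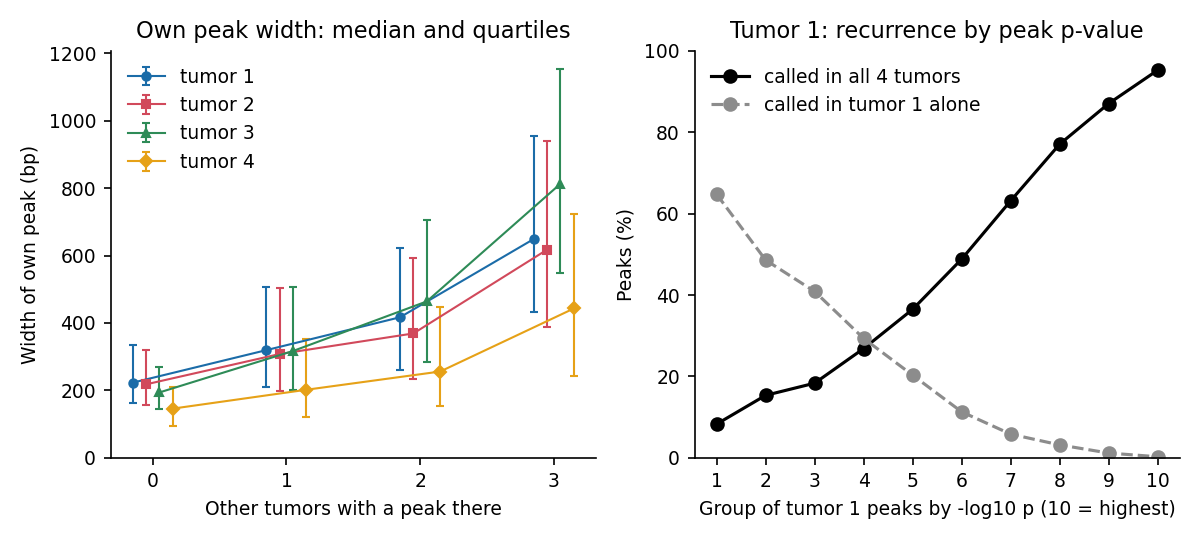
Recurrence, peak width and peak p-value. The left panel shows the median width (bp) of each tumor's own peaks, with bars from the lower to the upper quartile, by the number of other tumors with a peak there, and the right panel shows, for 10 equal groups of the tumor 1 peaks ordered by −log10 p, the percentage found in all 4 tumors or in tumor 1 alone. In the left panel the medians increase at each step in each of the tumors, from 146 to 223 bp for private peaks to between 443 and 813 bp for common ones, and in the right panel the common share increases from 8.28% to 95.2%.

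The 11246 regions common to all tumors were examined for how well the peaks coincided. In 8438 of them (75.03%) each tumor had a single peak. The core, meaning the bases covered in all 4 tumors, took up a median of 40.2% of the region, with quartiles of 24.5% and 55.3%. It had a median width of 388 bp and amounted to 5.39 Mb. In 277 regions (2.46%) no base was covered by all 4, since the peaks were linked only through each other. For a pair of tumors with a single peak each, the starts of the peaks differed by a median of 73 to 143 bp and the centres by 63.5 to 82.5 bp over the 6 pairs.

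Tumor 3 had the widest cover in 53.9% of these regions and tumor 4 the narrowest in 60.6%. The median cover was 722 bp in tumor 1, 686 bp in tumor 2, 863 bp in tumor 3 and 509 bp in tumor 4. The peaks of tumor 4 therefore lay largely inside those of the others, and the core was 73.7% of its own cover, against 48.4% in tumor 3. Spearman correlations of the covered length between pairs of tumors across the 11246 regions ranged from 0.627 for tumors 2 and 4 to 0.726 for tumors 1 and 3. They are given as a description over regions, which are not independent and share the libraries.

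Of the 11246 common regions, 9580 lay on chromosomes, and only these were used to describe cover around the centre. At their centre, a peak was present in 91.1% of them in tumor 1, 89.0% in tumor 2, 94.9% in tumor 3 and 77.3% in tumor 4. At 500 bp to the right of the centre the values had dropped to 32.4%, 31.95%, 40.9% and 22.03%. At 2000 bp they were 4.77%, 5.30%, 5.30% and 3.61%. The order of tumor 3 as the broadest and tumor 4 as the narrowest held at the centre and at 500 bp.

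**Figure D3:**
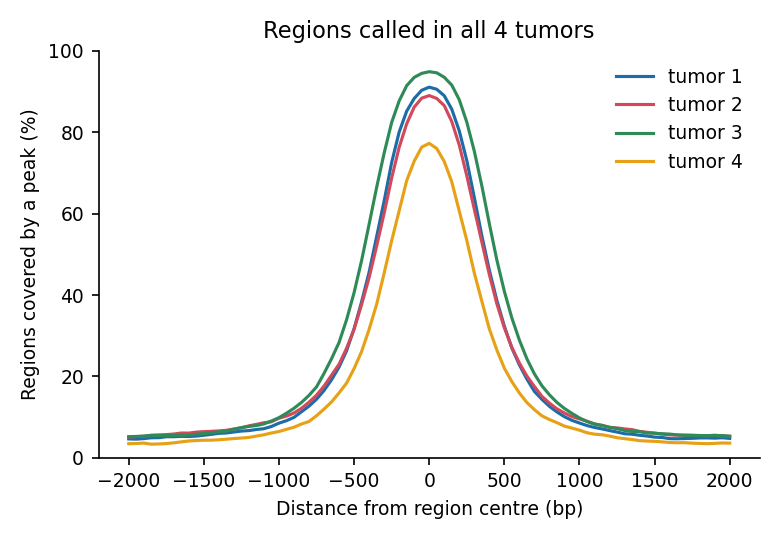
Cover of the regions common to 4 tumors. The horizontal axis is the distance from the centre of the merged region (bp). The vertical axis is the percentage of regions with a peak at that distance, and each line is a tumor. Of the 11246 common regions, only the 9580 on chromosomes were counted. The line of tumor 3 is the highest at the centre with 94.9% and that of tumor 4 the lowest with 77.3%.

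The regions with the largest cover in each of the tumors are named next, with the gene that the study's own intervals paired with them. The study drew these intervals from the same libraries, so a peak inside one is no independent evidence. Roles of the genes are those known from mammals. The region with the largest minimum cover was chr4:22466175-22474320, in an interval paired with ndufb2, a subunit of mitochondrial complex I. Its cover was 7207, 6263, 7570 and 6505 bp in tumors 1 to 4, with a core of 68.3%. The next was chr19:25125820-25135822, paired with the tyrosine phosphatase gene ptp4a3a, where the cover was 8256, 7456, 8653 and 6196 bp. At chr10:22736001-22742493, paired with kdm6bb, which encodes a demethylase of lysine 27 of histone H3, it was 5999, 6478, 5977 and 5327 bp. In these 3 regions the SD between tumors was 607, 1084 and 473 bp. Ranking by the smallest cover over the tumors favours regions of even cover, so a small SD here follows in part from the choice.

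The region chr17:25378273-25383948 was paired with lck, the Src family kinase that starts signalling from the T-cell receptor. Its cover was 4736, 5676, 5615 and 5616 bp in tumors 1 to 4, with a core of 83.0%. The transgene carries the zebrafish lck promoter, and reads from its copies cannot be told apart here from reads of the endogenous promoter. Whether this region holds the promoter was not tested. The region chr5:52248389-52254138, paired with erap2, an aminopeptidase that trims peptides for antigen presentation, had a cover of 5549, 5655, 4896 and 5370 bp. At chr7:6549028-6554008, paired with si:ch1073-220m6.1, the 4 tumors were the most alike of the 10, with 4808, 4844, 4577 and 4927 bp and a core of 89.2%.

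The remaining regions of the 10 were paired with midn, whose product delivers nuclear proteins to the proteasome, med13a, a subunit of the Mediator kinase module, gmfb, a regulator of actin branching, and dennd2da, a Rab exchange factor. At the midn region, chr22:18741445-18747695, the cover was 4903, 5113, 5288 and 4444 bp. At the med13a region, chr10:28108756-28115312, it was 5376, 5182, 4184 and 6557 bp, and there tumor 4 had the largest value. At the gmfb region, chr13:36595398-36600107, it was 4229, 4669, 4647 and 4174 bp. At the dennd2da region, chr8:13025904-13032901, it was 5486, 6106, 6612 and 4081 bp, with the lowest core of the 10 at 48.4%.

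For each tumor, the region most strongly covered in the other 3 and absent from it was also identified. Tumor 1 lacked chr3:45508842-45512753, paired with baiap3, a factor in vesicle release, where tumors 2, 3 and 4 had 3643, 3454 and 2823 bp. Tumor 2 lacked chr10:28198767-28202743, for which no gene was paired, with 3035, 2577 and 3758 bp in tumors 1, 3 and 4. Tumor 3 lacked chr13:34173538-34177615, paired with the cell adhesion gene flrt3, with 3994, 4078 and 3432 bp in tumors 1, 2 and 4. Tumor 4 lacked chr23:87895-91514, paired with hdac7a, a histone deacetylase gene active in developing T-cells of mammals, with 2450, 3604 and 2745 bp in tumors 1, 2 and 3. Single tumors thus lacked even regions of several kb in the other 3.

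The widest private regions were much narrower in tumors 1, 3 and 4 than in tumor 2. They measured 3080 bp at chr23:43598551-43601630 and 2849 bp at chr8:40611725-40614573 in tumor 1. In tumor 3 they measured 1914 bp at chr2:31878709-31880622, paired with the ubiquitin ligase gene rnf182, and 1767 bp at chr14:1098204-1099970. In tumor 4 they measured 2629 bp at chr6:43448533-43451161 and 1984 bp at chr3:45491489-45493472. Those of tumor 2 measured 88573 bp at chr25:26302922-26391494 and 62219 bp at chr12:14380457-14442675, each a single peak. No gene name of known role was paired with these stretches of tumor 2.

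Lists of genes were set beside the labelled cell type. Of 54 listed genes, 34 were placed on the assembly by the study's intervals, 30 had at least 1 tumor region inside the intervals and 26 had a region common to all 4 tumors. The lists follow the study's own markers and are not independent of these samples. For genes of T-cell identity and signalling, 19 of 25 were placed, 16 had a tumor region and 14 a common one. For the tumor-associated genes that the study short-listed, 8 of 9 were placed, 8 had a tumor region and 6 a common one. For cell cycle and survival, 6 of 6 were placed, 5 had a region and 5 a common one. Only 1 of 8 genes of the B-cell list was placed, and none of the 2 granulocyte or 4 macrophage genes, so the presence of those cells in the samples could not be checked. The loci held 504 regions, of which 119 (23.6%) were common to all tumors and 251 (49.8%) private, beside 20.8% and 60.5% of all regions. This is a description, since the study chose the intervals by their signal. The share of genes with a common region was not computed over all genes that the intervals name. A locus can hold many regions, such as 44 at gata3 and 45 at ets1, so the gene counts do not test the cell type.

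Among transcription factors of T-cells, gata3, which directs early T-cell development, had the longest mean cover of the placed genes. Cover is summed over loci of unequal extent, so its order between genes does not compare the mark between loci. Its peaks, spread from chr4:24890596 to chr4:25070179, covered 44829 bp in tumor 1, 19853 bp in tumor 2, 26325 bp in tumor 3 and 11433 bp in tumor 4. Tumor 1 was the highest also per covered length of the list, with 2.98 per mille against 1.12, 1.52 and 1.25. The gata3 intervals came in part from the study's stitched domains of tumors 1 to 3. Such intervals can favour those tumors over tumor 4, and this was not tested. The locus held 44 regions, of which 8 were common and 21 private. At bcl11ba, the orthologue of the T-lineage commitment factor BCL11B, the tumors were closer in bp, with 13595, 10182, 12695 and 11287 bp (mean 11939.8 ± 1508, SD, n = 4). Per covered length they spread from 0.575 per mille in tumor 2 to 1.24 in tumor 4. At ets1, a factor of lymphocyte development, the cover was 17226, 12245, 21707 and 17094 bp. At runx3, a factor of mature and cytotoxic T-cells, it was 16925, 12987, 17210 and 10285 bp. Each of these loci had cover above 10 kb in each tumor.

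The lymphoid factor ikzf1 had 13244, 19467, 9587 and 9800 bp in tumors 1 to 4, with 8 common regions of 26. The haematopoietic factor runx1 had 5994, 3141, 7283 and 2404 bp, with 5 common regions of 16. Tumor 2 was the highest of the 4 at ikzf1 and tumor 3 at runx1. The recombinase gene rag2, which rearranges antigen receptor genes, had 2321, 1404, 4529 and 2714 bp and 2 common regions. Its neighbour rag1 was not placed.

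Among genes of T-cell signalling, zap70, the kinase that follows lck, had 6310, 13371, 9773 and 9625 bp in tumors 1 to 4. The phosphatase gene ptprc, which encodes CD45, had 7836, 12908, 8130 and 8184 bp. The receptor gene il7r, which sustains developing lymphocytes, had 5343, 13215, 3650 and 7823 bp. At these 3 loci tumor 2 had the longest cover in bp. Per covered length of the list tumor 4 was the highest instead, with 1.06 per mille against 0.755 in tumor 2 at zap70, 0.898 against 0.728 at ptprc and 0.858 against 0.746 at il7r. The intervals of these loci came in whole or in part from stitched domains of tumors 1 to 3, and the effect on the order was not tested. The kinase genes pik3cd and pik3c2b had 8563, 12692, 11248 and 11497 bp, and 4649, 11883, 5969 and 6624 bp. At themis, which tunes signalling during thymic selection, the order was different, with 6464 bp in tumor 1, 718 bp in tumor 2, 2355 bp in tumor 3 and 2898 bp in tumor 4. The whole lck locus held 5116, 6823, 6481 and 5616 bp, with 1 common region and 6 private ones.

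Some placed genes had few or no tumor peaks in their intervals. No tumor region lay in the intervals of cd8a, a co-receptor gene of T-cells, of foxp1b, of the homing receptor gene ccr9a, or of bcl2a, an inhibitor of apoptosis. The id3 intervals held 72 bp in tumor 4 alone, and those of the chemokine receptor gene cxcr4a held a single short region, in tumor 3 alone. In these loci a peak was absent or present in 1 tumor only, which says nothing of the mark outside the intervals. The study's comparison of regions set tumors against thymus, and it lists id3 with regions activated in thymus. An interval chosen for its signal in thymus can lack tumor peaks through that choice, and this was not tested.

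Of the tumor-associated genes, midn had 20075, 15897, 22233 and 14196 bp in tumors 1 to 4 and ncaldb, a neuronal calcium sensor gene, 13852, 17397, 13002 and 9446 bp. The histone gene h2afx had 7934, 9427, 10884 and 7169 bp, and the vesicle trafficking gene sec22ba 2155, 4030, 4664 and 2187 bp. These 4 loci had several regions common to all tumors. The adaptor gene sla2, which dampens T-cell receptor signalling, had 13376, 6340, 6924 and 2767 bp. Its longest cover was in tumor 1.

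At 3 of these loci tumor 4 had little or no cover. At lrrn1, a gene of a neuronal membrane protein, the cover was 3929, 3861 and 4356 bp in tumors 1, 2 and 3, and 266 bp in tumor 4. At psip1a, a chromatin reader gene, it was 3705, 192, 2768 and 0 bp in tumors 1 to 4. At patl1, a gene of mRNA decay, it was 533, 178, 2546 and 0 bp. For psip1a and patl1, tumor 2 was also low, and no region at these loci had a peak in all 4 tumors. The interval of lrrn1, and in part that of psip1a, came from stitched domains of tumors 1 to 3. Such intervals can favour those tumors over tumor 4. The list of tumor 4 was the shortest of the 4, and the part of that difference in these low values was not tested. Per covered length, lrrn1 had 0.262, 0.218 and 0.251 per mille in tumors 1 to 3 and 0.0292 in tumor 4.

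Among cell cycle and survival genes, ccnd2a, the cyclin that drives entry into S phase, had 18579, 23352, 19034 and 19528 bp in tumors 1 to 4 (mean 20123 ± 2187, SD, n = 4). The tumors were close in bp, while per covered length tumor 4 was the highest, with 2.14 per mille against 1.24, 1.32 and 1.095. Its partner kinase cdk6 varied widely, with 9386, 4465, 16761 and 1930 bp, and 23 of its 38 regions were private. At mdm2, the ubiquitin ligase that restrains p53, a single region had 919, 1090, 1278 and 1162 bp. The anti-proliferative gene btg1 had 3919, 9223, 868 and 6991 bp, and the cytokine signalling inhibitor gene socs1a 4487, 9246, 3389 and 2778 bp. The intervals of cdk6, btg1 and socs1a came from stitched domains of tumors 1 to 3. The effect of that choice on the spread between tumors was not tested. The only placed gene of the B-cell list, prdm1a, whose product drives plasma cell differentiation and also acts in T-cells, had 1 common region with 494, 469, 1405 and 796 bp.

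**Figure D4:**
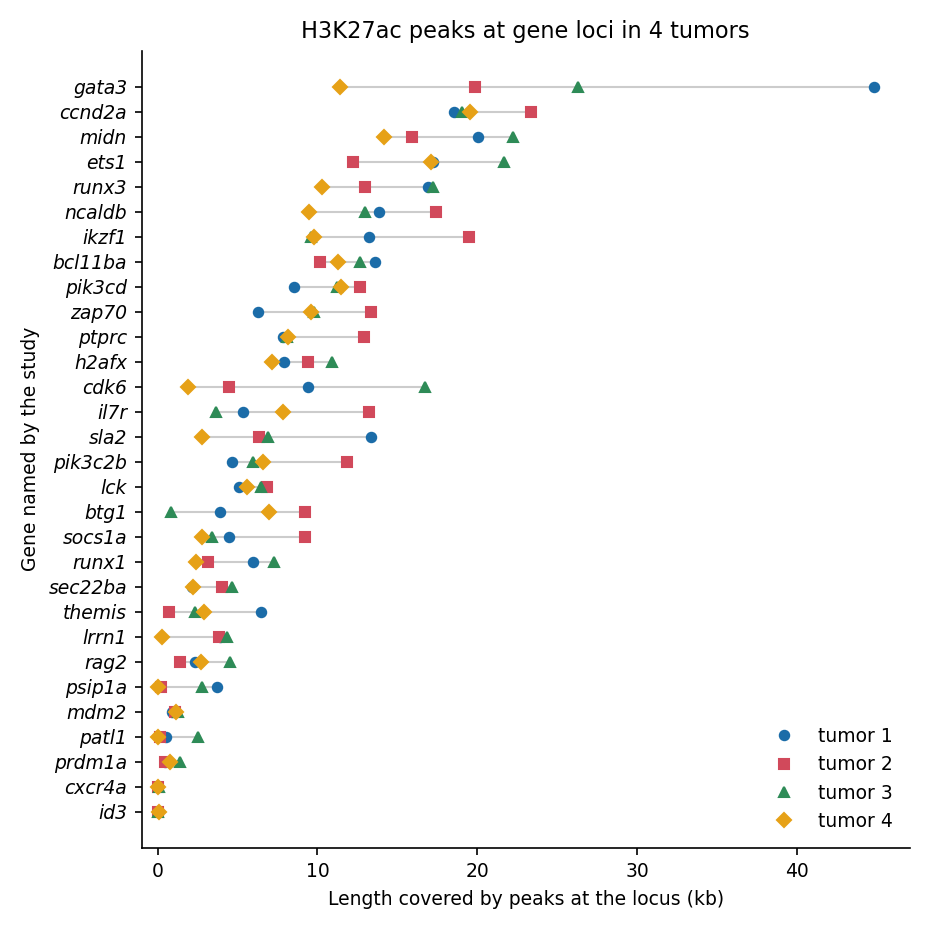
H3K27ac cover at the placed gene loci. Each row is a gene, ordered by mean cover, each point is the length covered by peaks (kb) in a tumor and the grey line spans the 4 tumors. Loci differ in extent, so the order of the rows does not compare the mark between genes. The row of gata3 spans the widest range, from 11433 to 44829 bp, whereas the points of ccnd2a, between 18579 and 23352 bp, and of bcl11ba, between 10182 and 13595 bp, lie close together in bp. Per covered length of the list they do not, with ccnd2a from 1.095 to 2.14 and bcl11ba from 0.575 to 1.24 per mille.

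Regions of different recurrence were spaced differently. The median distance from a region to the nearest of its own class was 7228, 31885, 47785 and 17408 bp for 1 to 4 tumors. It takes the nearer side, unlike the gaps between neighbouring peaks given above. These values depend on the number of regions in a class. Distance to the nearest region common to all tumors does not depend on the size of the class for regions of 1 to 3 tumors. For the common regions it is the same distance as above. The median distance to a common region was 45178 bp for private regions, 19459 bp for regions of 2 tumors, 17615.5 bp for those of 3 and 17408 bp for the common regions themselves. Within 10 kb of a common region lay 24.4% of private regions, 37.5% of those of 2 tumors and 39.0% of those of 3. For the private regions of each tumor the median was 32623 bp in tumor 1, 55127 bp in tumor 2, 43992.5 bp in tumor 3 and 39448 bp in tumor 4. The distance of arbitrary positions to a common region was not computed, so these values do not show that private regions lie apart. The 1426 private regions on sequences without a common region have no distance and are left out. Without tumor 2, the distance from private to common regions of the remaining 3 tumors was 28957 bp.

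Sequence types differed between the classes. Alternate locus sequences, which hold other versions of chromosomal segments, contained 12.01% of private regions, 17.4% of those of 2 tumors, 20% of those of 3 and 13.8% of the common ones. By covered length they held 13.97% of tumor 1, 10.7% of tumor 2, 15.2% of tumor 3 and 12.4% of tumor 4. Reads that match a chromosome and its alternate sequence cannot be assigned to one of them with certainty, and the effect on recurrence was not tested. Unplaced scaffolds held between 0.951% and 1.76% of the covered length of a tumor.

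The chromosomes were covered in similar proportions. The SD of a chromosome's share between tumors was 0.230 percentage points at the median over the 25 chromosomes, where the median share of a chromosome was 3.28%. Chromosome 3 held the largest share, with 5.61%, 5.39%, 5.33% and 5.45% of the covered length in tumors 1 to 4. Chromosome 16 was among the most variable, with 2.80% in tumor 1, 4.32% in tumor 2, 3.63% in tumor 3 and 3.65% in tumor 4. Tumor 1 was the lowest of the 4 also on chromosome 5, with 3.40% against 3.95% to 4.74%, and on chromosome 6, with 2.87% against 3.35% to 3.77%. Counting only the regions common to all tumors, tumor 1 still had the lowest share on chromosome 16 (3.20% against 3.47% to 3.66%), on chromosome 5 (3.58% against 3.91% to 4.21%) and on chromosome 6 (3.05% against 3.37% to 3.77%). Tumor 1 also lacked more regions there, at 8.60% on chromosome 16, 7.03% on chromosome 6 and 6.61% on chromosome 5, beside 4.65% over all sequences.

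The share of regions found in all tumors varied between chromosomes. It ranged from 16.1% on chromosome 4 and 16.8% on chromosome 1 to 28.2% on chromosome 22, with a median of 21.2%. On chromosome 1, 337 and 295 private regions lay from 35 to 40 and from 40 to 45 Mb, beside 22 and 35 common ones. Tumor 2 had the most peaks in both stretches. In windows of 5 Mb, a window held a median of 33 common regions, and the first 5 Mb of chromosome 22 held 167, followed by 77 and 76 in windows of chromosome 3. This stretch of chromosome 22 had 249, 227, 251 and 195 peaks in tumors 1 to 4. A window with many common regions has many peaks in each list by the rule of the class, so these counts are no separate evidence. Among the genes that the study paired with intervals in it were rbbp5, a core subunit of histone H3 lysine methyltransferase complexes, rad23ab, a DNA repair factor, and the kinase gene dstyk.

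**Figure D5:**
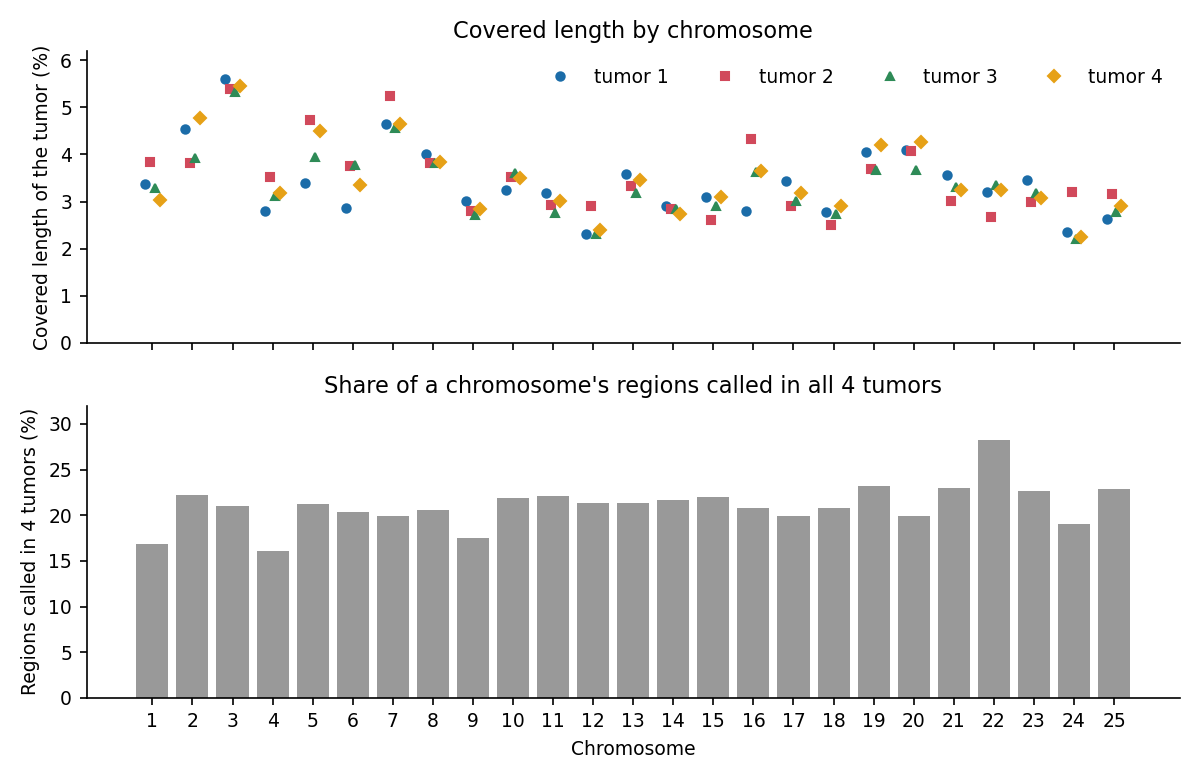
Chromosome distribution. The upper panel shows the percentage of each tumor's covered length on chromosomes 1 to 25, with a point per tumor, and the lower panel shows the percentage of a chromosome's merged regions that were found in all 4 tumors. Tumor 1 is the lowest point on chromosomes 4, 5, 6, 10, 16 and 25. Tumor 2 is the highest on chromosomes 7, 12 and 24, among others, and the tallest bar is that of chromosome 22 with 28.2%.

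Large differences in the number of peaks were seen in few windows of 5 Mb, although private regions lay in many other windows too. After division by the size of each list, tumor 2 had over 2 times the median of the other tumors in 11 of 282 windows, tumor 3 in 3, and tumors 1 and 4 in 0. The most extreme were the windows from 35 to 45 Mb of chromosome 1, with 341 and 314 peaks in tumor 2, beside 81 and 76 in tumor 1, 68 and 79 in tumor 3, and 49 and 53 in tumor 4. Of the regions in these windows, 337 and 295 were private, and 22 and 35 common. Tumor 3 had 122 peaks from 35 to 40 Mb of chromosome 25, where tumors 1, 2 and 4 had 49, 44 and 51. Tumor 1 had under 0.5 times the median of the others in 7 windows, all on chromosome 4 between 30 and 70 Mb. Tumor 4 was also under this limit in 2 of these windows, and tumors 2 and 3 were over 2 times the median of the others in 5 and 2 of the windows of the stretch. From 55 to 60 Mb of that chromosome, for example, tumor 1 had 6 peaks against 48 in tumor 2, 43 in tumor 3 and 13 in tumor 4. The windows of this stretch held 0 to 8 common regions each, beside the median of 33 over all windows.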

How the data were processed

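Broad H3K27ac peaks had been called by the authors on each tumor library against whole cell lysate with MACS2 version 2.1.1.2016030, from single-end 50 bp reads aligned to GRCz11 with Bowtie2 and freed of duplicates with SAMtools. The deposited lists give sequence, start, end and name. The deposited list of tumor 1 also gives a score, the fold enrichment (a ratio) and, on the −log10 scale, the q-value and p-value of each peak, of which the fold enrichment and the p-value served to describe tumor 1. The score and q-value were not used.

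The members and the gene lists were chosen with earlier results of these data known. A region was called in a tumor when any of its peaks lay in the merged region. Comparisons are descriptions over 4 tumors with no test between groups, since there is a single group, and Dixon's limit was applied only to find measures in which 1 tumor stood apart. Values are means ± SD over tumors. The reads behind each list were not known beyond a nominal depth that the study names for all libraries, so the effect of depth was not tested, and lists with a smaller limit on peak width can hold narrower peaks.

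The named regions on chromosomes 1 to 25 were the 10 with the largest minimum cover over the 4 tumors, for each tumor the most covered region it alone lacked, and the 2 most covered regions it alone had. Every placed gene of the lists was described. Genes were named through the GRCz11 intervals of the study, either stitched domains with their top gene (tumors 1 to 3) or regions within 50 kb of the closest start site. At each gene placed through stitched domains, these can favour the tumors they were drawn from, and this was not tested. These tables were held in shortened form, so a gene that was not placed may be listed in the full ones. A stretch of a locus runs from its first to its last tumor region. Windows of 5 Mb, shares over common regions and 10 groups of tumor 1 peaks were chosen after seeing the data.

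Alternatives were chromosomes 1 to 25 only, peaks joined within 500 bp, a call that needs peaks over 50% of a region, removal of peaks narrower than the minimum width of tumor 1, equal numbers of the widest peaks (19809 per list), removal of peaks over 10 kb, bins of 1 kb, and leaving out each tumor. Calculations ran in Python 3.11.15 with SciPy 1.17.1 and NumPy 2.4.6, and plots were drawn with matplotlib 3.10.9. The merging step was tested on simulated lists and gave back 4000 of 4000 regions with their class.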

Additional observations from a re-analysis of the deposited data

Results flagged for a closer look

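Among 39 measures compared between the 4 tumors (list properties and chromosome shares), 4 had 1 tumor farther from the rest than Dixon's limit for 4 samples, and in each case it was tumor 2. Chance gives about 1 in 20 such results per measure. The measures are not independent, since chromosome shares are parts of the same covered length and the wide peaks of tumor 2 enter several of them. The 4 results are therefore not separate departures. The widest peak measured 88573 bp in tumor 2, beside 6908, 7349 and 6557 bp in tumors 1, 3 and 4. The share of covered length on chromosome 7 was 5.24% in tumor 2, beside 4.64%, 4.56% and 4.65%. On chromosome 12 it was 2.91% in tumor 2, beside 2.30%, 2.30% and 2.39%. On chromosome 24 it was 3.19% in tumor 2, beside 2.36%, 2.20% and 2.26%. With peaks over 10 kb removed, an alternative added after seeing the data, the tumor 2 shares were 4.79%, 2.41% and 2.93% on chromosomes 7, 12 and 24, so the wide peaks of tumor 2 carried most of the first 2 differences and less of the third.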

How the results depend on the processing

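The 8 results were recomputed under up to 7 alternatives, and 43 of 53 values stayed within 1.5 times (counts and the core share) or 1 SD of the reported ones. With equal numbers of the widest peaks (19809 per list), the union fell to 33682 regions and the private regions to 15827, since fewer peaks were merged. With bins of 1 kb, each called where peaks covered at least 50% of it, there were 22380 units in the union, 3866 common and 10495 private, common bins were 37.2% of those of a tumor, and the median distance from private to common units was 95000 bp. When a call needed peaks over 50% of a region, 4718 regions were common, their share was 33.3% and the distance was 94976 bp. The median core share was then 58.2%, beside the reported 40.2%, a change within 1.5 times. So the count of common regions, and the order of the classes by number, depend on how much of a region a call must cover. The other alternatives did not move a result this far.

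With a tumor left out, the union held 41119 to 51354 regions, of which 11778 to 13909 were common and 21998 to 31277 private. The common share of length was 67.1% to 73.2% and the private share 12.9% to 19.7%, the mean Jaccard index 0.356 to 0.418, the median core 44.2% to 54.1% and the distance 28957 to 40346 bp, lowest without tumor 2. Common then means 3 of 3 tumors, which raises the common counts and lowers the distance by construction. The Jaccard index does not use calls of regions and has no value under joining or the 50% rule, and the core has none in bins. No paired analysis was possible because a single group was described. Removing peaks over 10 kb, added after seeing the data for 3 chromosome shares of tumor 2, moved chromosome 7 to 4.79% and chromosome 12 to 2.41%.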
